A study of Homo sapiens with 12 samples.

Results

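The ATF4 stress response and endoplasmic reticulum (ER) folding genes are 39 genes taken by name from both gene tables, out of 60558 genes that the tables share by identifier. They comprise 10 genes of the ATF4 arm, 4 sensors and transcription factors of the other arms, 19 genes of the chaperone arm, 5 calcium-binding genes of the CREC family (RCN1, RCN2, RCN3, CALU and SDF4) and EMC6, a subunit of the ER membrane complex. All 39 passed the filter on low counts in both experiments. RNA was sequenced from MDA-MB-231 cells, an established human triple-negative breast cancer (TNBC) line, in 2 experiments of 6 libraries each. In the NONO experiment, 3 control libraries (NC, genotype label WT) were set against 3 libraries with siRNA knockdown of NONO, a DNA- and RNA-binding paraspeckle protein. In the PKM2 experiment, 3 other NC libraries of label WT were set against 3 libraries with siRNA knockdown of PKM2, the M2 isoform of pyruvate kinase. The study asked which genes both proteins control in TNBC cells, and which siRNA was used for sequencing is not given in the sources used here.

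Cells meet an excess of unfolded protein in the ER with the unfolded protein response. The kinase PERK, encoded by EIF2AK3, phosphorylates the initiation factor eIF2, which slows translation in general and favours translation of ATF4, a transcription factor that raises genes for amino acid supply, redox balance and cell death. Other eIF2 kinases reach ATF4 without ER stress, a route known as the integrated stress response. The nuclease IRE1, encoded by ERN1, splices XBP1 mRNA, and ATF6 is cleaved in the Golgi by site proteases, and both resulting factors raise ER chaperones and degradation genes. Gene-level RNA values do not show phosphorylation, XBP1 splicing or ATF6 cleavage.

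Values are CPM, read counts scaled to a common library size with TMM factors, and log2 fold changes set each knockdown against the NC libraries of its experiment in the quasi-likelihood test of edgeR. A gene was called where its P value, adjusted over all genes tested, was below 0.05. Between genes, levels were compared as TPM, which also divides by transcript length. The targeted genes fell in every knockdown library, from 391, 358 and 369 to 61.8, 64.3 and 61.9 CPM for NONO (log2 fold change -2.57, SE 0.05, adjusted P = 1.17e-10) and from 2276, 2211 and 2324 to 218, 228 and 234 CPM for PKM (log2 fold change -3.32, SE 0.05, adjusted P = 7.03e-12), the gene of PKM2, whose isoforms gene-level values do not separate. ESR1, PGR and the leukocyte gene PTPRC stayed below 0.5 CPM in every library, the endothelial gene PECAM1 lay between 0.774 and 3.04 CPM, VIM and CD44 were at or above 3811 and 355 CPM, and ERBB2 lay between 36.3 and 80.3 CPM. Nothing states that replicates came from separate cultures, so P values measure the spread between these libraries. Libraries held 19861762 to 28455268 estimated counts. In chi-square per degree of freedom between libraries of a group, NC replicate 1 of the NONO experiment (10.2 and 8.29 against 2.47 for the other NC pair) and PKM2-knockdown replicate 3 (12.3 and 10.5 against 3.34) stood apart from their group. In bulk RNA, fewer cells expressing a gene and less RNA per cell cannot be told apart.

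After NONO knockdown, 6 of the 39 genes were raised and 9 lowered, beside 16.2% and 17.2% of the 14832 genes tested. After PKM2 knockdown, 16 were raised and 15 lowered, beside 33.6% and 34.7% of 15524 genes. The study's own cutoffs (more than 2-fold and unadjusted P below 0.05) were applied to the edgeR fits. The counts were then 2 of 39 after NONO knockdown (EMC6 raised and CEBPB lowered, beside 2.95% of all genes) and 11 of 39 after PKM2 knockdown (beside 20.8% of all genes). These shares of the 39 genes lay near or somewhat above those of all genes. With DESeq2, and with limma on TPM values, 3 genes passed these cutoffs after NONO knockdown and 10 after PKM2 knockdown. Arm medians differed after PKM2 knockdown, although the ATF4 arm, the chaperone arm and the CREC genes each held genes called in both directions. Of the 5 CREC genes, 2 were raised and 3 lowered there, so their median describes the family poorly. The ATF4 arm had a median log2 fold change of 0.08 after NONO knockdown and 1.13 after PKM2 knockdown, the chaperone arm -0.03 and -0.21, and the CREC genes -0.05 and -0.97. Over all genes tested the medians were -0.01 after both knockdowns. Without NC replicate 1 of the NONO experiment, 9 genes were raised and 14 lowered after NONO knockdown. Without PKM2-knockdown replicate 3, the counts after PKM2 knockdown stayed at 16 and 15. On TPM values tested with limma, 12 were raised and 18 lowered after PKM2 knockdown, with CANX, DNAJC3, DNAJB11 and NUPR1 no longer called and ASNS, HERPUD1 and PDIA6 called as lowered.

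**Figure D1:**
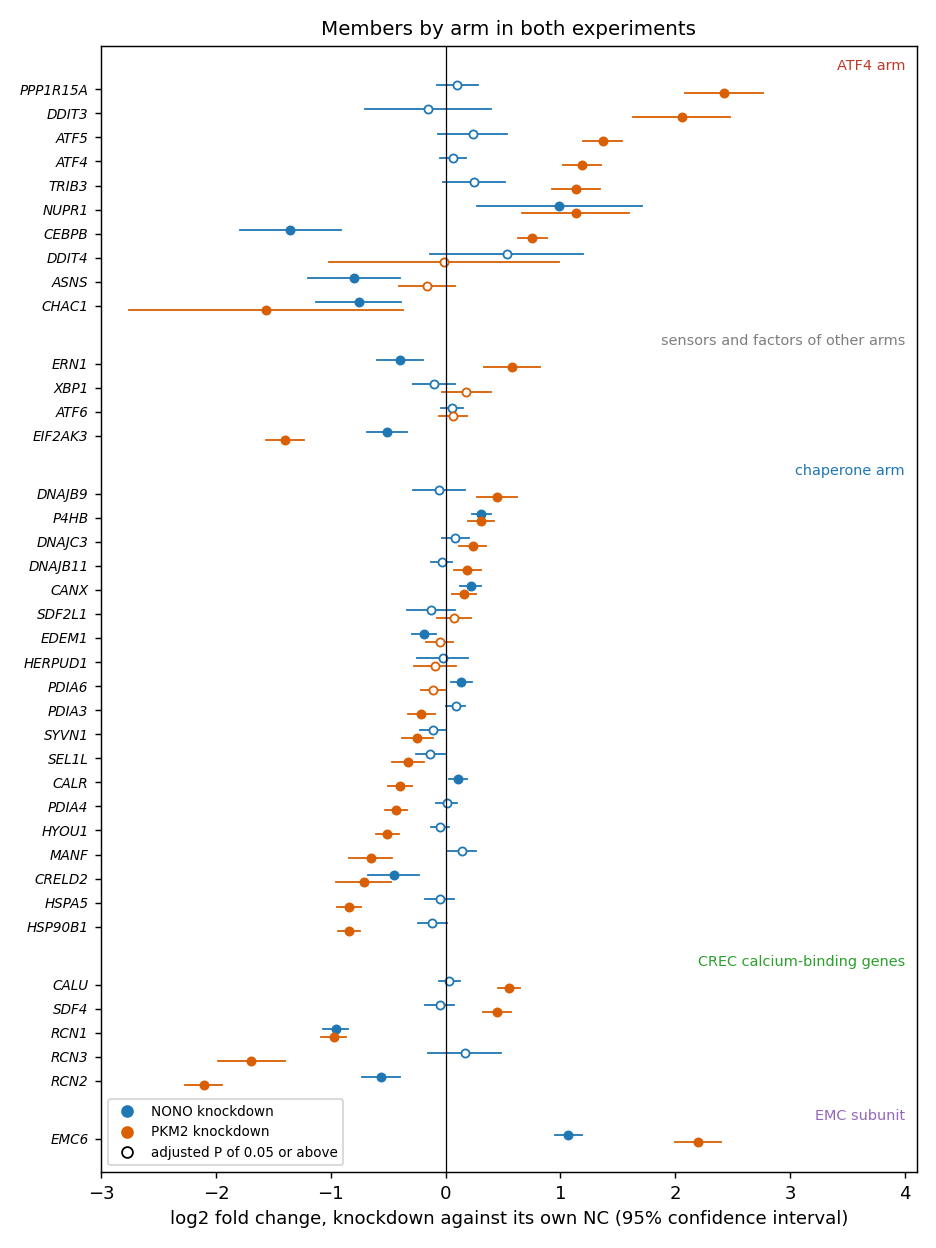
Log2 fold change (x axis) of the 39 genes, grouped by arm, after NONO knockdown (blue) and PKM2 knockdown (orange), each against its own 3 NC libraries. Lines are 95% confidence intervals and open points have an adjusted P of 0.05 or above. 7 ATF4 arm genes lie between 0.75 and 2.42 in orange, whereas in blue the arm spreads from -1.35 (CEBPB) to 0.99 (NUPR1), while HSPA5 and HSP90B1 lie at -0.84 in orange.

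In the ATF4 arm, 7 of 10 genes rose and 1 fell after PKM2 knockdown, beside 33.6% and 34.7% of all genes tested. After NONO knockdown 1 rose and 3 fell, beside 16.2% and 17.2% of all genes tested. ATF4 itself stood at 194, 219 and 202 CPM in the NC libraries and 215, 220.0 and 209 CPM after NONO knockdown, and the groups overlapped (log2 fold change 0.07, adjusted P = 0.358). In the PKM2 experiment ATF4 (chr22:39519695-39522685, plus strand of GRCh38) stood at 174, 218 and 194 CPM in the NC libraries and 423, 438 and 475 CPM after PKM2 knockdown. Every PKM2-knockdown library was above every NC library, a 2.28-fold rise (log2 fold change 1.19, SE 0.08, adjusted P = 6.67e-08). ATF4 was already among the more abundant of the 39 transcripts per length, at 331 ± 32.04 TPM in NC and 704 ± 17.3 TPM after PKM2 knockdown (SD, n = 3 each).

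PPP1R15A encodes GADD34, the inducible subunit that directs a phosphatase to eIF2 and so reverses the signal that favours ATF4 translation. The gene (chr19:48872392-48876057, plus strand) was at 163, 266 and 165 CPM in the NC libraries and 1098, 1013 and 1075 CPM after PKM2 knockdown. No library of either group came near the other group, and the 5.37-fold rise was the largest of the 39 genes after PKM2 knockdown (log2 fold change 2.42, SE 0.15, adjusted P = 6.61e-08). In the NONO experiment the values were 177, 233 and 206 CPM in the NC libraries and 225, 228 and 208 CPM after NONO knockdown, which overlapped (log2 fold change 0.10, SE 0.08, adjusted P = 0.378), although without NC replicate 2 PPP1R15A was called as raised (log2 fold change 0.21, adjusted P = 0.0348). DDIT3 encodes CHOP, a factor linked to cell death under lasting stress. It rose 4.15-fold in the PKM2 experiment, from 9.08, 18.4 and 11.2 to 58.3, 45.99 and 54.9 CPM (log2 fold change 2.05, SE 0.19, adjusted P = 1.60e-06), with no overlap, although NC replicate 2 lay above its fellow NC libraries. After NONO knockdown DDIT3 stood at 10.5, 7.37 and 6.66 CPM against 5.47, 12.1 and 9.68 CPM in NC, within the NC spread (log2 fold change -0.15, SE 0.25, adjusted P = 0.688). Its exons share 355 bases with MARS on the opposite strand, and strand handling in the counting is not stated. MARS was far more abundant than DDIT3 in the NONO experiment, at a mean of 194 CPM in NC and 173 CPM after knockdown. Its level in the PKM2 experiment was not examined.

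TRIB3, a pseudokinase induced downstream of ATF4 and CHOP, went from 12.05, 15.7 and 13.6 CPM in NC to 31.3, 28.3 and 31.00 CPM after PKM2 knockdown (log2 fold change 1.14, SE 0.10, adjusted P = 6.88e-07). Its NONO values were 14.96, 21.9 and 19.02 CPM in the NC libraries and 20.7, 24.2 and 21.7 CPM after NONO knockdown. The latter groups overlapped, and the test did not pass (log2 fold change 0.25, SE 0.12, adjusted P = 0.151), although without NC replicate 2 it did (log2 fold change 0.39, adjusted P = 0.0272). ATF5, a factor related to ATF4, rose 2.58-fold, from 18.9, 16.9 and 15.6 to 43.1, 45.5 and 44.1 CPM after PKM2 knockdown (log2 fold change 1.37, SE 0.08, adjusted P = 2.36e-08). In the NONO experiment ATF5 stood at 16.3, 11.2 and 11.5 CPM in the NC libraries and 15.3, 14.6 and 15.8 CPM after NONO knockdown. There NC replicate 1 lay above every other library of the experiment, and the other NC libraries lay below all knockdown libraries (log2 fold change 0.24, SE 0.14, adjusted P = 0.214), and without it ATF5 was called as raised (log2 fold change 0.44, adjusted P = 0.00118). NUP62, which shares 626 exon bases with ATF5 on the opposite strand, moved the other way after PKM2 knockdown (log2 fold change -0.79).

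CEBPB encodes C/EBP-beta, a factor that can pair with ATF4 and with CHOP, and it moved in opposite directions. It fell to 66.4, 49.2 and 35.6 CPM after NONO knockdown from 144, 148 and 94.1 CPM in NC, a 2.55-fold fall without overlap (log2 fold change -1.35, SE 0.20, adjusted P = 0.000426). In the PKM2 experiment it went from 107, 112 and 104 to 185, 169 and 192 CPM, a rise of 1.69-fold (log2 fold change 0.75, SE 0.06, adjusted P = 3.20e-07). NUPR1, a small stress-induced nuclear protein, was scarce throughout. It was measured at 1.43, 1.27 and 1.73 CPM in the NC libraries and 3.11, 3.65 and 3.01 CPM after PKM2 knockdown (log2 fold change 1.13, SE 0.21, adjusted P = 0.00052). The NONO values, 0.903, 2.05 and 1.59 CPM in the NC libraries and 3.94, 3.20 and 1.93 CPM after NONO knockdown, overlapped between groups (log2 fold change 0.99, SE 0.33, adjusted P = 0.0374). That NONO call was lost on TPM values (log2 fold change 0.35 and adjusted P = 0.634 with a pseudocount of 1) and without NC replicate 3, knockdown replicate 1 or knockdown replicate 2 (adjusted P = 0.0791, 0.166 and 0.111), and the PKM2 call was lost on TPM values (adjusted P = 0.0688).

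3 further genes of the arm, CHAC1, ASNS and DDIT4, did not rise after PKM2 knockdown. CHAC1, which degrades glutathione, stood at 16.6, 36.4 and 17.5 CPM in the NC libraries and 17.9, 3.09 and 2.69 CPM after PKM2 knockdown. Knockdown replicate 1 sat inside the NC range while replicates 2 and 3 were far below it (log2 fold change -1.57, SE 0.54, adjusted P = 0.0229). Without replicate 2 or replicate 3 of the knockdown, or without NC replicate 2, this call was lost (adjusted P = 0.0839, 0.0526 and 0.113), and DESeq2 gave 0.162. After NONO knockdown CHAC1 fell from 18.2, 27.5 and 23.5 to 15.5, 15.3 and 10.2 CPM without overlap (log2 fold change -0.76, SE 0.17, adjusted P = 0.0054), a call lost on TPM values (adjusted P = 0.0524). ASNS, which makes asparagine, fell 1.74-fold after NONO knockdown (log2 fold change -0.80, SE 0.18, adjusted P = 0.006) and stood at -0.16 on the log2 scale after PKM2 knockdown (adjusted P = 0.21). The NONO fall was not called on TPM values (adjusted P = 0.114). ASNS is uncertain, because it shares 1985 exon bases with the transcript AC079781.5 on the same strand, which was at 4.62, 4.24 and 4.07 CPM in the NC libraries of the NONO experiment and at 18.6, 18.7 and 20.3 CPM in those of the PKM2 experiment, and fell to 7.42, 7.13 and 6.66 CPM after PKM2 knockdown.

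DDIT4, which encodes the mTORC1 inhibitor REDD1, was the gene of the arm that passed the test in neither experiment, and single libraries stood apart in both. In the NONO experiment NC replicate 1 was at 39.1 CPM beside 113 to 128 CPM in the other NC libraries and 109 to 154 CPM after knockdown (log2 fold change 0.53, 95% interval -0.14 to 1.20). In the PKM2 experiment knockdown replicate 1 was at 129 CPM beside 31.1 and 32.1 CPM in the other knockdown libraries and 42.4 to 90.3 CPM in NC. Without that library DDIT4 fell by 1.03 on the log2 scale (adjusted P = 0.00233). The same library held the highest CHAC1 value of its group. Among the NC libraries, replicate 2 held the highest value for 9 of 10 ATF4 arm genes in the NONO experiment and for 8 of 10 in the PKM2 experiment. The part of these libraries in the results of other genes was not tested beyond leaving each out.

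**Figure D2:**
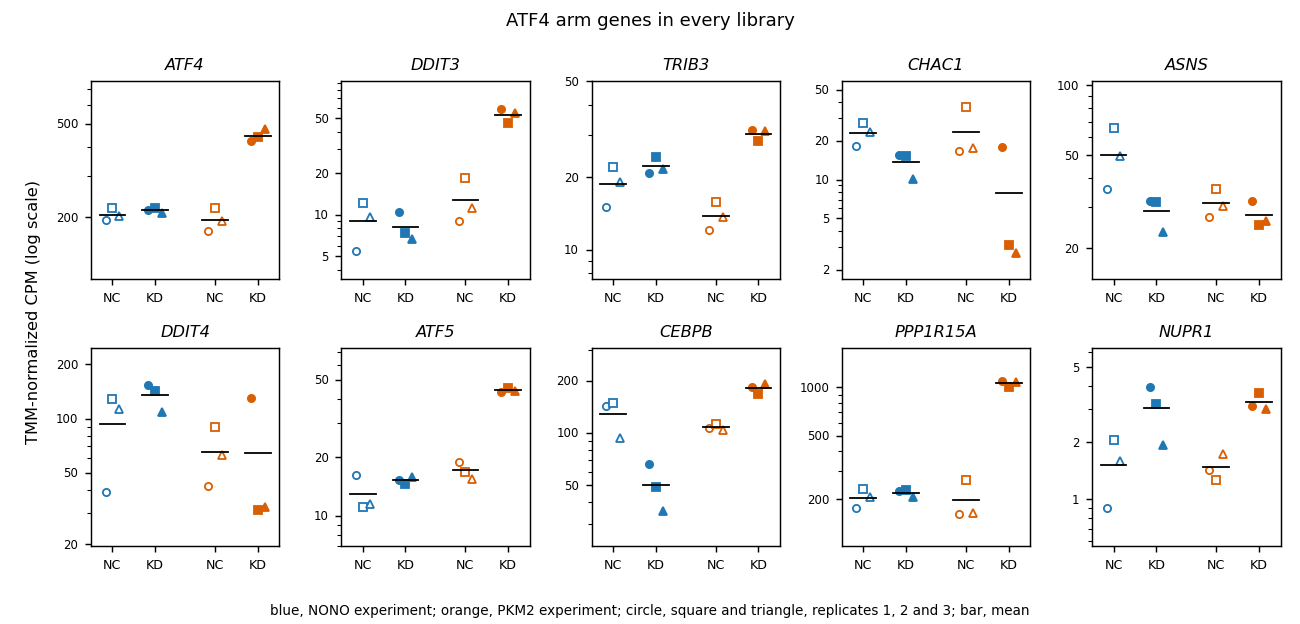
TMM-normalized CPM (log axis) of the 10 ATF4 arm genes in each of 12 libraries, NC as open and knockdown (KD) as filled symbols, NONO experiment in blue and PKM2 experiment in orange, with the group mean as a bar. PKM2-knockdown libraries lie above all NC libraries of their experiment for ATF4, DDIT3, TRIB3, ATF5, CEBPB, PPP1R15A and NUPR1, and CHAC1 and DDIT4 are high in knockdown replicate 1 alone of the 3.

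Among the sensors and factors of the other arms, EIF2AK3, which encodes PERK, fell in both experiments. Its values were 25.8, 27.2 and 26.5 CPM in the NC libraries and 9.99, 10.4 and 9.75 CPM after PKM2 knockdown, a 2.64-fold fall (log2 fold change -1.40, SE 0.08, adjusted P = 1.70e-08). The NONO experiment gave 30.4, 33.4 and 29.3 CPM in the NC libraries and 22.5, 22.5 and 20.3 CPM after NONO knockdown, a smaller fall that also left no overlap (log2 fold change -0.51, SE 0.08, adjusted P = 0.000526). The mRNA of this ER-resident eIF2 kinase fell while ATF4 mRNA rose after PKM2 knockdown, and fell without a called change of ATF4 after NONO knockdown. A relation between these mRNAs was not tested. ERN1, the gene of IRE1, fell after NONO knockdown (log2 fold change -0.40) and rose after PKM2 knockdown (0.58), each past the test.

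XBP1 mRNA was measured at 57.2, 72.00 and 65.7 CPM in the NC libraries and 65.6, 60.3 and 55.7 CPM after NONO knockdown, and at 51.5, 65.5 and 53.9 CPM in the NC libraries and 72.1, 58.7 and 62.7 CPM after PKM2 knockdown. All these groups overlapped, and neither contrast passed the test (log2 fold changes -0.10 and 0.18, adjusted P = 0.389 and 0.115). Leaving out 1 NC library changed both calls, since without NC replicate 1 XBP1 was lowered after NONO knockdown (-0.18, adjusted P = 0.0265) and without NC replicate 2 it was raised after PKM2 knockdown (0.29, adjusted P = 0.0146). ATF6 had log2 fold changes of 0.06 and 0.07, with 95% intervals of -0.04 to 0.15 and -0.05 to 0.19.

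More chaperone arm genes fell than rose after PKM2 knockdown, with 10 of 19 lowered and 5 raised, beside 34.7% and 33.6% of all genes tested. None of the 19 passed the study's cutoffs there. After NONO knockdown 4 were raised and 2 lowered, beside 16.2% and 17.2% of all genes tested. HSPA5 encodes BiP, the Hsp70 of the ER that also holds the stress sensors inactive. The PKM2 values of the gene (chr9:125234853-125241330, minus strand) were 805, 766 and 798 CPM in the NC libraries and 461, 422 and 441 CPM after PKM2 knockdown, a 1.79-fold fall in which every knockdown library lay below every NC library (log2 fold change -0.84, SE 0.05, adjusted P = 2.76e-08). HSPA5 in the NONO experiment was at 776, 938 and 871 CPM in the NC libraries and 845, 828 and 822 CPM after NONO knockdown, inside the NC range (log2 fold change -0.05, SE 0.06, adjusted P = 0.549). Without NC replicate 1, which stood apart, 6 genes of the arm were raised and 6 lowered after NONO knockdown, since HSPA5 (-0.11, adjusted P = 0.00599), HSP90B1 (-0.17, adjusted P = 0.000165), SEL1L (-0.18, adjusted P = 0.00195) and HERPUD1 (-0.14, adjusted P = 0.0257) were then lowered and PDIA3 (0.09, adjusted P = 0.0379) and MANF (0.17, adjusted P = 0.0229) raised. HSP90B1, the Hsp90 of the ER, had log2 fold changes of -0.12 after NONO knockdown (adjusted P = 0.144) and -0.84 after PKM2 knockdown (adjusted P = 1.20e-08).

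Chaperones and their helpers fell to different extents after PKM2 knockdown. CRELD2, an ER stress-inducible protein of the secretory pathway, stood at -0.71 on the log2 scale and was the chaperone arm gene that was lowered after both knockdowns (-0.45 after NONO knockdown). MANF, a secreted ER stress protein, fell by 0.65, HYOU1, a large Hsp70-type chaperone and exchange factor for BiP, fell by 0.51, and the disulfide isomerases PDIA4 and PDIA3 fell by 0.43 and 0.21 on the log2 scale. CALR, the soluble lectin chaperone calreticulin and the most abundant of the 39 transcripts at 715 ± 8.15 TPM in NC (SD, n = 3), fell by 0.40 after PKM2 knockdown. Its membrane-bound relative CANX rose by 0.16. P4HB, the disulfide isomerase PDI, rose by 0.31 after NONO knockdown and 0.31 after PKM2 knockdown. The J-domain genes DNAJB9, DNAJC3 and DNAJB11, whose proteins feed substrates to BiP, rose after PKM2 knockdown by 0.45, 0.24 and 0.19 while BiP itself fell. Some of these genes share exon bases with a gene on the opposite strand that moved the same way after PKM2 knockdown, so that reads of the pair cannot be told apart if strand was not used. THAP5, which shares 183 bases with DNAJB9, rose by 0.73, ALG12, which shares 168 bases with CRELD2, fell by 0.54, and ELL3, which shares 627 bases with PDIA3, fell by 2.34. PDIA6, another disulfide isomerase, stood at -0.11 on the log2 scale (adjusted P = 0.0562).

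The list also holds genes of ER-associated degradation, which returns misfolded proteins to the cytosol. SEL1L and SYVN1, the core of the HRD1 ubiquitin ligase, fell by 0.33 and 0.25 after PKM2 knockdown. The SYVN1 value is uncertain, because the gene shares 398 exon bases with FAU on the same strand. FAU was at a mean of 204 CPM in NC and 233 CPM after PKM2 knockdown (log2 fold change 0.19), beside 58.1 and 49.0 CPM for SYVN1. EDEM1, which marks glycoproteins for degradation, was lowered after NONO knockdown (-0.19, a call lost on TPM values and without knockdown replicate 3, adjusted P = 0.386 and 0.0536) and stood at -0.05 after PKM2 knockdown, where the test did not pass. HERPUD1, an ER stress-inducible scaffold of that ligase, and SDF2L1, a partner of BiP and J-domain proteins, passed the test in neither experiment (log2 fold changes -0.02 and -0.09 for HERPUD1, -0.13 and 0.07 for SDF2L1). HERPUD1 was called as lowered after PKM2 knockdown on TPM values and without knockdown replicate 1 (-0.32 and -0.19, adjusted P = 0.0268 and 0.0269). After NONO knockdown the raised chaperone genes were P4HB, CANX (0.22), PDIA6 (0.14) and CALR (0.11), and the calls of PDIA6 and CALR were lost on TPM values (adjusted P = 0.197 and 0.299) and when any of 5 and 4 of the 6 libraries was left out.

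The sums of TPM over each arm put these changes on a common scale per length. The ATF4 arm summed to 741 ± 120 TPM in NC and 1746 ± 107 TPM after PKM2 knockdown, and the chaperone arm to 3293 ± 38.3 and 2479 ± 84.4 TPM (SD, n = 3 each). The sums of the NONO experiment were 689 ± 113 and 634 ± 56.2 TPM for the ATF4 arm, and 3223 ± 90.8 and 3234 ± 51.4 TPM for the chaperone arm. The lowest PKM2-knockdown sum of the ATF4 arm was 1684 TPM and the highest NC sum 878 TPM, whereas the NONO groups overlapped. ATF4 and PPP1R15A carried most of the ATF4 arm sum after PKM2 knockdown, at 704 ± 17.3 and 648 ± 38.5 TPM. Abundant genes also weigh heavily in the chaperone arm sum. Mean TPM went from 513 to 243 for HSP90B1, from 715 to 496 for CALR and from 301 to 154 for HSPA5, whereas 5 of the 19 genes were called as raised.

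Promoter sequence was read to see which members carry the elements known for the ATF6 and XBP1 factors and for ATF4. Windows run from 250 bases before to 50 bases after RefSeq gene starts (GRCh38.p14), and 37 of the 39 genes had a window, NUPR1 and PDIA3 being without. The ER stress element (ERSE), CCAAT and CCACG separated by 9 bases, searched on both strands, was present in 27 of 35116 windows of all genes (0.08%). Among the 39 genes, whose windows are part of that count, it was found at HSPA5, HSP90B1 (at 2 places), CALR, CANX, PDIA6, CRELD2 and XBP1. A gene can have several windows (4 for CANX), so counts of windows and of genes are unlike units. ERSE-II (ATTGG, any base, CCACG) was present in 19 windows (0.05%), among them those of HERPUD1, SDF2L1 and HYOU1 (at 2 places). Both elements share CCACG, and ATTGG is the reverse complement of CCAAT. The XBP1 element TGACGTGG was in 0.73% of windows and, of these genes, in HYOU1 alone, overlapping an ERSE-II. The C/EBP-ATF response element (CARE, TGATGNAA) was in 3.62% of windows and in those of CHAC1, ASNS and HERPUD1. No match was found in the windows of the CREC genes or EMC6. The stretches below are shown because they hold ERSE or ERSE-II matches at genes that fell and at genes that did not pass the test after PKM2 knockdown, with the match in capitals and the gene's own strand read 5′ to 3′.
HSPA5, chr9:125241371-125241429, minus strand: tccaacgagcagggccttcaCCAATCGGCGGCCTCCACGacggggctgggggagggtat
HSP90B1, chr12:103930211-103930239, plus strand: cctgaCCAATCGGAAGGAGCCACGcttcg
HSP90B1, chr12:103930316-103930344, plus strand: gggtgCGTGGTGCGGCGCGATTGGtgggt
CALR, chr19:12938364-12938422, plus strand: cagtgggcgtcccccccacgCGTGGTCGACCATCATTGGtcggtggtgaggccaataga
CRELD2, chr22:49918534-49918592, plus strand: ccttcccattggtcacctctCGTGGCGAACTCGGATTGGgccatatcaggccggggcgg
HYOU1, chr11:119057254-119057413, minus strand: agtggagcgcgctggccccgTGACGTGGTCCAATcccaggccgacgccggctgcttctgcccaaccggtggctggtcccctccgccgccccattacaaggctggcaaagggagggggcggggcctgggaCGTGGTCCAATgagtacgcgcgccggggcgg
SDF2L1, chr22:21642094-21642144, plus strand: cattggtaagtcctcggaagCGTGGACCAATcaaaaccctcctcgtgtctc
XBP1, chr22:28800598-28800626, minus strand: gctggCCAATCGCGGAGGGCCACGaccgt

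Of the 7 genes with an ERSE match, HSPA5, HSP90B1, CALR and CRELD2 fell after PKM2 knockdown, CANX rose, and XBP1 and PDIA6 did not pass the test. Of the 3 with ERSE-II, HYOU1 fell and HERPUD1 and SDF2L1 did not pass. MANF, PDIA4, SEL1L and SYVN1 fell without a match in their windows. The CARE matches of CHAC1 and ASNS, the genes of the ATF4 arm that held the element, are shown because neither gene rose after PKM2 knockdown.
CHAC1, chr15:40953252-40953279, plus strand: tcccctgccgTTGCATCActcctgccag
ASNS, chr7:97872459-97872486, minus strand: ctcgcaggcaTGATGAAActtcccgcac
Of the 7 ATF4 arm genes that rose after PKM2 knockdown, ATF4, DDIT3, TRIB3, ATF5, CEBPB and PPP1R15A had no match to these letters in their windows, and NUPR1 had no window. A match describes sequence only, and elements outside the window were not searched.

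The CREC genes encode EF-hand calcium-binding proteins of the secretory pathway, namely the reticulocalbins RCN1, RCN2 and RCN3, calumenin (CALU) and Cab45 (SDF4). After PKM2 knockdown all 3 reticulocalbins fell and CALU and SDF4 rose, so the family divided. RCN1 (chr11:32090904-32105755, plus strand) was measured at 373, 362 and 353 CPM in the NC libraries and 195, 189.6 and 175 CPM after NONO knockdown. In the PKM2 experiment it was at 339.7, 332 and 324 CPM in the NC libraries and 163, 167 and 178 CPM after PKM2 knockdown. Neither experiment showed overlap, and the falls were 1.94-fold (log2 fold change -0.96, SE 0.05, adjusted P = 2.11e-07) and 1.96-fold (log2 fold change -0.97, SE 0.05, adjusted P = 1.02e-08). The difference between them was -0.03 with a 95% interval of -0.18 to 0.12 on the log2 scale. As mean TPM, RCN1 went from 210 to 104 in the NONO experiment and from 215 to 100 in the PKM2 experiment. The study, which computed expression as TPM, names RCN1 among the genes lowered when either protein was knocked down. RCN1 shares 935 exon bases with AL035078.4 on the same strand, a gene at no more than 1.13 CPM in any library.

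RCN2 (chr15:76931619-76954392, plus strand) fell further after PKM2 knockdown, from 76.7, 70.9 and 67.4 to 15.8, 16.3 and 17.8 CPM, a 4.31-fold fall that was the largest of the 39 genes there (log2 fold change -2.11, SE 0.07, adjusted P = 6.22e-10). After NONO knockdown it went from 82.3, 72.7 and 68.1 to 53.9, 50.04 and 47.1 CPM, again without overlap (log2 fold change -0.56, SE 0.07, adjusted P = 0.000207). RCN3, the least abundant of the family per length (12.9 ± 3.23 TPM in NC, SD, n = 3), differed between the experiments. Its PKM2 values were 10.1, 9.17 and 8.75 CPM in the NC libraries and 2.65, 3.14 and 2.89 CPM after PKM2 knockdown (log2 fold change -1.69, SE 0.13, adjusted P = 4.00e-07). Its NONO values, 8.88, 10.5 and 7.43 CPM in the NC libraries and 10.4, 11.04 and 8.70 CPM after NONO knockdown, overlapped (log2 fold change 0.17, SE 0.14, adjusted P = 0.417). CALU and SDF4 rose 1.47-fold and 1.36-fold after PKM2 knockdown (adjusted P = 3.20e-07 and 1.74e-05), and their log2 fold changes after NONO knockdown were 0.03 and -0.05 (adjusted P = 0.602 and 0.553). As summed TPM the family went from 484 ± 16.0 to 352 ± 9.59 in the NONO experiment and from 513 ± 15.3 to 414 ± 3.71 in the PKM2 experiment (SD, n = 3 each).

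EMC6 (chr17:3668815-3669668, plus strand) belongs to the ER membrane complex, which inserts transmembrane segments into the ER membrane. It rose after both knockdowns. In the NONO experiment it was at 36.2, 33.9 and 34.8 CPM in the NC libraries and 72.96, 74.7 and 72.6 CPM after NONO knockdown, a 2.10-fold rise (log2 fold change 1.07, SE 0.05, adjusted P = 1.57e-07). In the PKM2 experiment it was at 24.5, 26.2 and 29.6 CPM in the NC libraries and 109, 123 and 136 CPM after PKM2 knockdown, a 4.59-fold rise (log2 fold change 2.20, SE 0.09, adjusted P = 2.34e-09). The knockdown libraries lay far above all NC libraries both times. EMC6 shares 571 of its 769 exon bases with the readthrough gene P2RX5-TAX1BP3 on the opposite strand, so its value is uncertain where reads were counted without strand. That gene stood at 4.57, 3.72 and 3.79 CPM in NC and 3.39, 3.00 and 5.49 CPM after NONO knockdown. In the PKM2 experiment it stood at 47.03, 45.5 and 43.3 CPM in NC and 35.8, 34.9 and 30.9 CPM after knockdown, and so did not rise with EMC6. Its NC levels thus differed widely between the experiments, and whether this affects the comparison of EMC6 between the knockdowns was not tested.

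**Figure D3:**
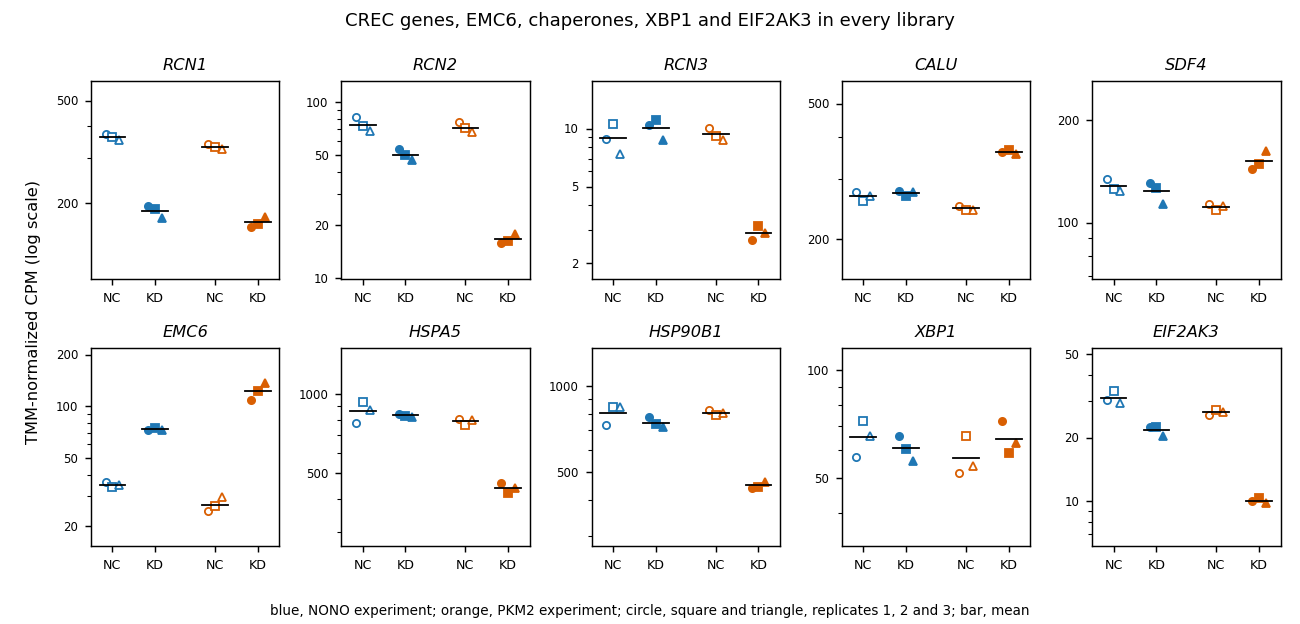
TMM-normalized CPM (log axis) of the CREC genes, EMC6, HSPA5, HSP90B1, XBP1 and EIF2AK3 in each of 12 libraries, NC as open and knockdown (KD) as filled symbols, NONO experiment in blue and PKM2 experiment in orange, with the group mean as a bar. RCN1 falls in both experiments, RCN3, HSPA5 and HSP90B1 fall in the PKM2 experiment, EMC6 rises in both, and the XBP1 groups overlap.

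Whether the knockdowns differed was tested as the log2 fold change after PKM2 knockdown minus that after NONO knockdown, in 1 edgeR fit over 12 libraries and 15995 genes. The difference was positive and called for 13 of the 39 genes and negative and called for 11, beside 25.7% and 27.4% of all genes tested. In the ATF4 arm 7 of 10 differences were called, all positive, and the median was 0.99. The largest were PPP1R15A (difference 2.31, SE 0.20, adjusted P = 3.46e-08), DDIT3 (difference 2.19, SE 0.35, adjusted P = 5.42e-05) and CEBPB (difference 2.09, SE 0.23, adjusted P = 8.48e-07), followed by ATF5 (1.12), ATF4 (1.11), TRIB3 (0.87) and ASNS (0.62). The ASNS call (adjusted P = 0.0378) was lost with DESeq2 (adjusted P = 0.0876) and without any of 5 single libraries, namely NC replicate 2 or knockdown replicate 3 of the NONO experiment and NC replicate 1, NC replicate 3 or knockdown replicate 1 of the PKM2 experiment (adjusted P = 0.0606 to 0.109). CHAC1 and DDIT4 had wide 95% intervals, -2.21 to 0.56 and -1.90 to 0.78, and without PKM2-knockdown replicate 1 both differences were called (-2.27 and -1.58, adjusted P = 4.24e-04 and 0.0115).

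In the chaperone arm the differences of HSPA5 (difference -0.80, SE 0.08, adjusted P = 2.15e-07), MANF (-0.81), HSP90B1 (-0.74), CALR (-0.52), HYOU1 (-0.47), PDIA4 (-0.45), PDIA3 (-0.31) and PDIA6 (-0.26) were called as lower after PKM2 knockdown. Those of DNAJB9 (0.49) and DNAJB11 (0.21) were called as higher, and the other 9 did not pass. P4HB and CANX, raised in both experiments, had differences of -0.02 (95% interval -0.16 to 0.12) and -0.07 (95% interval -0.21 to 0.07). Outside both arms the called differences were ERN1 (0.97), EIF2AK3 (-0.90), RCN2 (difference -1.56, SE 0.11, adjusted P = 4.45e-09), RCN3 (difference -1.87, SE 0.20, adjusted P = 5.95e-07), CALU (0.51), SDF4 (0.48) and EMC6 (difference 1.12, SE 0.11, adjusted P = 2.70e-07). XBP1, at 0.27, did not pass (adjusted P = 0.115), although without NC replicate 1 of the NONO experiment or NC replicate 2 of the PKM2 experiment it did (0.36 and 0.39, adjusted P = 0.0311 and 0.0184).

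**Figure D4:**
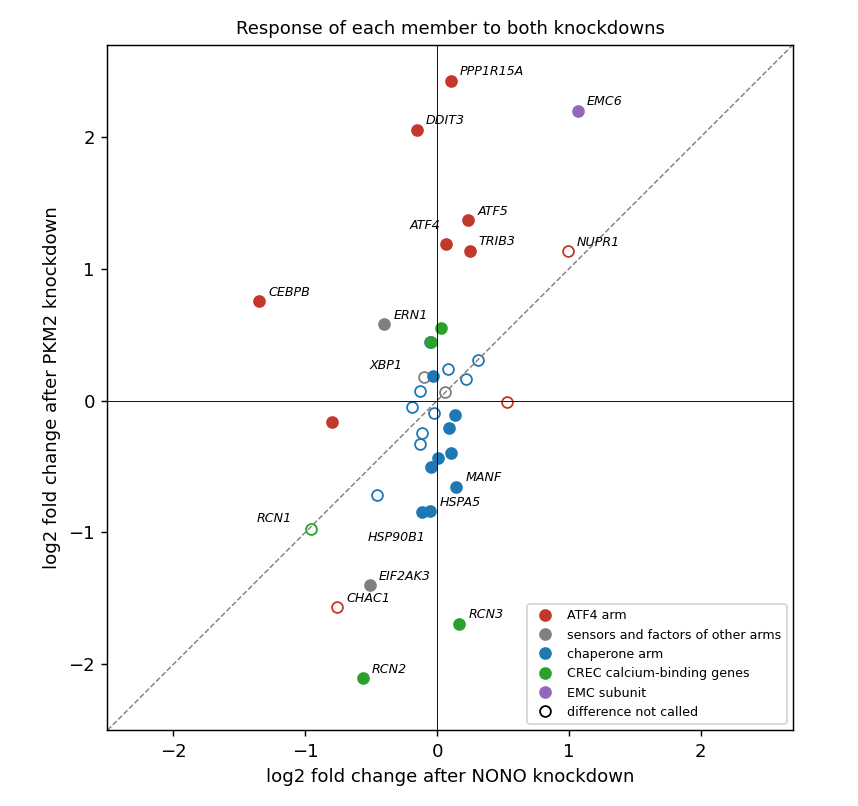
Log2 fold change after NONO knockdown (x axis) against that after PKM2 knockdown (y axis) for the 39 genes, coloured by arm, with equal change on the dashed line. Filled points are genes whose difference between the knockdowns was called, 24 in all. ATF4 arm genes lie above the line except CHAC1 and DDIT4, which are not called, and HSPA5, HSP90B1, MANF, RCN2, RCN3 and EIF2AK3 lie below it.

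Lists of related genes place the 39 in their pathways. Of 20 other ATF4 target genes, 18 were tested, of which 7 rose and 6 fell after PKM2 knockdown and none rose and 9 fell after NONO knockdown (edgeR, median log2 fold changes 0.14 and -0.21). Over all genes tested, 33.6% rose and 34.7% fell after PKM2 knockdown and 16.2% rose and 17.2% fell after NONO knockdown, shares against which this and the following counts are to be read. After PKM2 knockdown the largest changes among them were the cytokine GDF15 (2.50), the hormone precursor ADM2 (-1.99) and the stress factor ATF3 (1.76). GDF15 stood at 19.8 ± 4.62 CPM in NC and 111 ± 22.3 CPM in the PKM2 knockdown libraries (SD, n = 3 each). After NONO knockdown the largest were the cystathionine lyase CTH (-0.78), the lipoprotein receptor VLDLR (-0.77) and the factor JDP2 (-0.58). Beyond PERK, the eIF2 machinery rose in 9 of 12 genes and fell in 1 after PKM2 knockdown, against 1 raised and 2 lowered after NONO knockdown. PPP1R15B, the constitutive partner of the eIF2 phosphatase, rose by 0.88, and the eIF2 subunit genes EIF2S1 and EIF2S2 by 0.71 and 0.56 on the log2 scale. EIF2AK1, the heme-regulated eIF2 kinase, rose after both knockdowns (0.32 and 0.40), and EIF2AK2, the kinase PKR, was lowered after NONO knockdown (-0.24).

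Of 19 other ER folding genes, 7 rose and 7 fell after PKM2 knockdown, near the shares of all genes, and 6 rose and 3 fell after NONO knockdown. GANAB, the catalytic subunit of glucosidase II, which trims glycans for the CALR and CANX cycle, stood at 207 ± 5.26 CPM in NC and 579 ± 7.01 CPM in the NONO knockdown libraries (SD, n = 3 each). It rose by 1.49 on the log2 scale there (SE 0.04, adjusted P = 1.85e-09) and by 0.12 after PKM2 knockdown. MOGS, which acts just before it, fell by 0.91 after PKM2 knockdown. ERO1A, the oxidase that recharges disulfide isomerases, rose after both (0.72 and 0.66). CRELD1, a relative of CRELD2, fell by 1.78 and the prolyl isomerase FKBP14 rose by 1.30 after PKM2 knockdown, and ERP44 was lowered after NONO knockdown (-0.49).

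Of 13 tested genes of ER-associated degradation beyond the members, 3 rose and 7 fell after PKM2 knockdown and 1 rose and 2 fell after NONO knockdown. EDEM2 and EDEM3, relatives of EDEM1, fell by 1.34 and 1.27 on the log2 scale after PKM2 knockdown, and UFD1, part of the VCP extraction complex, rose by 0.53. After NONO knockdown EDEM2 was lowered (-0.27) and UFD1 raised (0.20). Genes of the translocon and signal peptidase, which bring proteins into the ER, rose in 9 of 16 cases and fell in 1 after PKM2 knockdown, with SRPRB (0.67), SPCS2 (0.63) and SPCS3 (0.53) changed most. After NONO knockdown 2 rose and 3 fell, with SSR1 (-0.77), SRPRA (-0.28) and SEC11A (0.23) changed most.

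The other EMC subunits rose in 6 of 9 cases and fell in none after PKM2 knockdown, led by MMGT1 (0.68), EMC2 (0.36) and EMC8 (0.30), all smaller than the 2.20 of EMC6. After NONO knockdown none rose and EMC8 (-1.12) and EMC3 (-0.26) fell, while EMC6 rose. ER calcium pumps, channels and sensors fell in 7 of 10 cases and rose in 2 after PKM2 knockdown, among them the pump ATP2A3 (-2.28, at about 1 CPM in NC) and the nucleobindins NUCB2 (-1.32) and NUCB1 (-0.70), which bind calcium as the CREC proteins do. After NONO knockdown 5 fell and 2 rose, with STIM2 (-0.37), ITPR1 (-0.36) and ITPR2 (0.34) changed most. Of 6 site protease and OASIS factor genes, MBTPS2, a protease that cleaves ATF6, fell after both knockdowns (-0.25 and -0.61), and MBTPS1 rose after NONO knockdown (0.27) and fell after PKM2 knockdown (-0.25). In all, 2 of these 6 rose and 3 fell after PKM2 knockdown, where CREB3 (0.42) and CREB3L2 (0.41) were raised, and 1 rose and 2 fell after NONO knockdown, where CREB3L1 was lowered (-0.26).

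**Figure D5:**
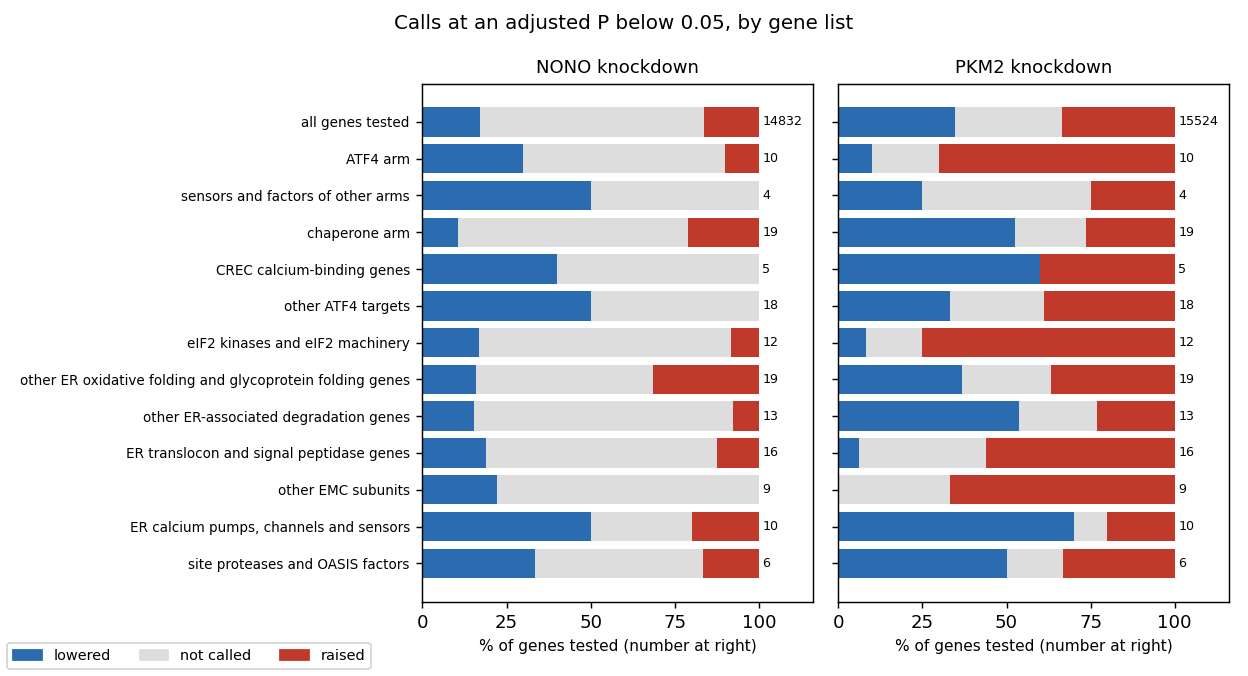
Share of tested genes (x axis, %) lowered, not called or raised at an adjusted P below 0.05 in each list after NONO knockdown (left) and PKM2 knockdown (right), with the number tested at the right of each bar. After PKM2 knockdown the ATF4 arm has 7 of 10 raised and the chaperone arm 10 of 19 lowered, beside 33.6% raised and 34.7% lowered over all genes.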

How the data were processed

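Poly(A) RNA of 12 MDA-MB-231 libraries was sequenced as paired 150-base reads on an Illumina NovaSeq. Per the labels, the authors deposited 1 gene table per experiment holding estimated counts and TPM for each library. The submitters' processing notes list fastp, HISAT2, StringTie, RSEM, DESeq2, edgeR, limma and build hg19, without roles. Of the table's gene identifiers, 96.5% and 96.3% are in GENCODE release 29 (GRCh38), which gave gene locations here. The authors' fold changes, P values and group-mean TPM in the same tables were not used. The tables differ in annotation, since some gene lengths differ, so each knockdown was tested against NC within its own table. The test of the difference between knockdowns instead joined the counts of both tables. Among the genes studied, lengths in the NONO and PKM2 tables differed for MANF (558 and 909), SDF4 (1089 and 1956) and RCN1 (2572 and 2369). They also differed for ATF4 (1419 and 1486), CALR (1903 and 1901) and SYVN1 (3052 and 3038). Whether this affects the differences of these genes was not tested.

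Estimated counts as deposited were rounded, filtered by filterByExpr, scaled by TMM and compared with the quasi-likelihood fit of edgeR (version 4.0.16, under R 4.3.3) on 3 NC against 3 knockdown libraries, with Benjamini-Hochberg adjustment over all genes tested. The difference between knockdowns was a contrast in a fit of 12 libraries. The 6 libraries of the NONO experiment held 19861762 to 20981712 counts each, and the 6 of the PKM2 experiment 24097948 to 28455268. Depth thus differed between the experiments, and the number of libraries limits precision. Replicates of a group differed by a chi-square per degree of freedom of 2.33 to 12.3, so no library was a copy. The fit was tested on simulated data. All 39 genes may be named, with values in every library for those called at a log2 fold change or difference of at least 1 in size and for ATF4, XBP1, HSPA5 and RCN1, and of each related list up to 3 called genes with the largest changes per experiment. Other genes of those lists were named after their values were seen. The members and lists were chosen with earlier results of these data known. Alternatives were DESeq2 1.42.0, other filters and scalings, the replicate block, and limma 3.58.1 on log2(TPM + 1) and log2(TPM + 0.1) with a minimum mean TPM of 1. Further ones were leaving out each library, a trend on transcript length and, chosen after seeing the data, a trend on GC content. Promoter windows came from RefSeq (GRCh38.p14). The value of 1 gene of the related lists is not reported here.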

Additional observations from a re-analysis of the deposited data

Results flagged for a closer look

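For 24 of the 39 genes the log2 fold change after PKM2 knockdown differed from that after NONO knockdown in edgeR's test of the difference (adjusted P below 0.05), beside 25.7% of all genes tested with a higher and 27.4% with a lower value. In the ATF4 arm the differences were 2.31 for PPP1R15A, 2.19 for DDIT3, 2.09 for CEBPB, 1.12 for ATF5, 1.11 for ATF4, 0.87 for TRIB3 and 0.62 for ASNS. Among the sensors they were 0.97 for ERN1 and -0.90 for EIF2AK3. In the chaperone arm the lower values were -0.81 for MANF, -0.80 for HSPA5, -0.74 for HSP90B1, -0.52 for CALR, -0.47 for HYOU1, -0.45 for PDIA4, -0.31 for PDIA3 and -0.26 for PDIA6, and the higher ones 0.49 for DNAJB9 and 0.21 for DNAJB11. The CREC genes gave -1.87 for RCN3, -1.56 for RCN2, 0.51 for CALU and 0.48 for SDF4, and EMC6 gave 1.12. CEBPB and ERN1 were called in opposite directions in the experiments, as was CALR, whose rise of 0.11 after NONO knockdown lost its call on TPM values (adjusted P = 0.299), with the replicate block (0.0816), without a filter on low counts (0.059) and without any of 4 single libraries (0.0893 to 0.128).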

How the results depend on the processing

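No gene called as raised or lowered changed direction under any alternative run, and of the values of single genes under the alternatives 63 lost a call, 37 gained one, 53 without a call changed sign and 1641 did neither. Values with a trend on transcript length or GC content subtracted kept the adjusted P of the main fit. Their calls could not change, and they are among these counts. After NONO knockdown, 3 of the 39 genes were raised with the replicate block (NUPR1, CALR and PDIA6 were lost) and 3 and 3 on log2(TPM + 1) and log2(TPM + 0.1) tested with limma, and without a filter on TPM 2 were raised and 5 lowered, against 6 and 9. Leaving out 1 library gave 3 to 9 raised and 8 to 14 lowered, the 14 without NC replicate 1, and chaperone arm medians of -0.044 to 0.021. After PKM2 knockdown the ATF4 arm median was 0.74, 0.77 and 0.74 under those TPM settings (1.13 on counts), the chaperone arm median -0.31, -0.32 and -0.31 (-0.21 on counts) and the CREC median -1.10, -1.11 and -1.10 (-0.97 on counts), while the median of all genes moved from -0.01 to -0.09, -0.10 and -0.02. Over 20 bins of genes, median log2 fold changes after PKM2 knockdown ran from -0.29 to 0.17 by GC content and from -0.12 to 0.12 by transcript length. Subtracting a trend with GC content, chosen after seeing the data, gave -0.14 for the chaperone arm and -1.07 for the CREC genes. The cause was not tested. Same-numbered NC and knockdown libraries did not deviate together (r = -0.12, 0.047 and -0.065 in the NONO experiment and -0.072, 0.00033 and 0.043 in the PKM2 experiment), and with the replicate block the PKM2 counts stayed at 16 and 15 and those of the difference at 13 and 11. Without a filter on low counts DDIT4 was called after NONO knockdown (adjusted P = 1.68e-20), and so were XBP1 after PKM2 knockdown (0.0149), TRIB3 after NONO knockdown (0.0425) and the differences of CHAC1 (2.10e-07) and DDIT4 (8.95e-10), for a cause not tested. Where a library was left out, the group of 2 was tested with a spread pooled with the other group. With 3 libraries a group, the 95% intervals of CHAC1 and DDIT4 spanned over 1 log2 unit after PKM2 knockdown.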
